A study of Homo sapiens with 15 samples.

Results

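The butyrophilin genes BTN1A1, BTN2A1, BTN2A2, BTN3A1, BTN3A2 and BTN3A3 lie side by side on chromosome 6, and MPP8 peaks over them were examined in K-562, a human cell line of chronic myeloid leukaemia origin that is labelled as a lymphoblast type. All 6 genes were found among the 20037 protein-coding genes of the RefSeq table used here. They span 145 kb of hg38, from 26365169 to 26510425, and every deposited peak within that span plus 10 kb on each side (26355169 to 26520425) was taken. The groups were 1 library of MPP8 ChIP-seq from cells lacking TASOR (TASOR KO) and 1 from cells lacking TASOR2 (TASOR2 KO), both precipitated with the same antibody to MPP8. Per the labels' protocols the knockouts were made with CRISPR/Cas9 and grown as clones from single sorted cells. The protocol shared by all samples also describes lentiviral empty vectors and FLAG-tagged transgenes, but the titles of these samples name no transgene. The other 13 samples of the series were not used here, among them input chromatin and MPP8 ChIP from unedited and from MPP8 KO cells. The signal at these genes in unedited cells and without MPP8 was therefore not examined. Since each genotype had 1 library, replicate error is unknown and no p-value was computed. Peak lists hold no expression values, so neither the labelled cell type nor the knockouts could be checked from them.

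Butyrophilins are membrane proteins of the immunoglobulin superfamily related to the B7 costimulatory molecules, and most carry an intracellular B30.2 domain. BTN3A1 binds phosphoantigens, metabolites of isoprenoid synthesis, through that domain, and acts with BTN2A1 to activate γδ T cells. The BTN3A genes are induced by interferon gamma, and NLRC5, the activator of MHC class I genes, also acts on them through a promoter module that ends in a CCAAT box. MPP8 reads methylated histone H3 lysine 9 within the human silencing hub (HUSH), for which TASOR is the scaffold and TASOR2 a paralog of that scaffold.

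The promoters are shown because the peaks at BTN3A2 and BTN3A3 covered them in full. Each runs 5′ to 3′ on the plus strand of hg38, from 250 bases before to 50 bases after the annotated start, and comes from RefSeq (GRCh38.p14). Entries were found for 4 of the 6 members, with a second, downstream start for BTN3A2 that is not printed. No sequence is shown for BTN2A2 and BTN3A1. Capitals mark CCAAT boxes on either strand, on either strand AAAA and GAAA set 2 bases apart, a spacing bound by interferon regulatory factors (IRF), and the longest run that the BTN3A2, BTN3A3 and BTN2A1 promoters had in common.
BTN3A2, chr6:26364948-26365247: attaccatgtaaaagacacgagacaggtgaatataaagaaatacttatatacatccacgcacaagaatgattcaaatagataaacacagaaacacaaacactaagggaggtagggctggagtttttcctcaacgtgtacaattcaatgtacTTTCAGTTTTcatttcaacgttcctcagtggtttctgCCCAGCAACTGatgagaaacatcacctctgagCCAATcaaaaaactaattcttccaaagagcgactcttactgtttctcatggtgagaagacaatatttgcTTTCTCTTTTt
BTN3A3, chr6:26440254-26440553: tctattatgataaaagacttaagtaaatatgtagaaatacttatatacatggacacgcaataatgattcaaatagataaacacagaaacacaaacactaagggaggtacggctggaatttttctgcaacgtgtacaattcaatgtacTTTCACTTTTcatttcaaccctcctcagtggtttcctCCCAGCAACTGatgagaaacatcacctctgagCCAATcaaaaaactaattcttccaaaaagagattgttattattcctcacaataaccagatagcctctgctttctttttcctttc
BTN2A1, chr6:26457705-26458004: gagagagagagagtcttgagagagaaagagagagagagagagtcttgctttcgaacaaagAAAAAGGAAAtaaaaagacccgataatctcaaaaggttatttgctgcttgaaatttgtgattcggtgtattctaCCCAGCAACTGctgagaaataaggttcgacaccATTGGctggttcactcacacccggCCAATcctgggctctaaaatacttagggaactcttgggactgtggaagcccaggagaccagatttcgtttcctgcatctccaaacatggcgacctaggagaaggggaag
BTN1A1, chr6:26500053-26500352: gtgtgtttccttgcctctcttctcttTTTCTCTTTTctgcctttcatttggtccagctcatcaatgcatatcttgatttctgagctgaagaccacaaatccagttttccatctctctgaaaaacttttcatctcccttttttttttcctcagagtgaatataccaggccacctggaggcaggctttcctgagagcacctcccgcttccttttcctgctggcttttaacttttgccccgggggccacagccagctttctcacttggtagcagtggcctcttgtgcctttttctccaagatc

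In TASOR KO cells 3 of the 6 butyrophilin genes carried an MPP8 peak, BTN3A2, BTN3A3 and BTN2A1, with 1 peak each. BTN2A2, BTN3A1 and BTN1A1 had none. In TASOR2 KO cells none of the 6 genes carried a peak. The largest q was 0.460 in the TASOR KO list and 0.258 in the TASOR2 KO list, so the lists may differ in threshold. The BTN3A3 peak, with a q of 0.306, lay above the largest q of the TASOR2 KO list. Over all protein-coding genes, 1.08% had a TASOR KO peak in the body and 0.858% a TASOR2 KO peak. On chromosome 6 these shares were 1.91% and 1.24%. The genes were chosen for these peaks, so their counts are a description and nothing was tested on them.

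**Figure D1:**
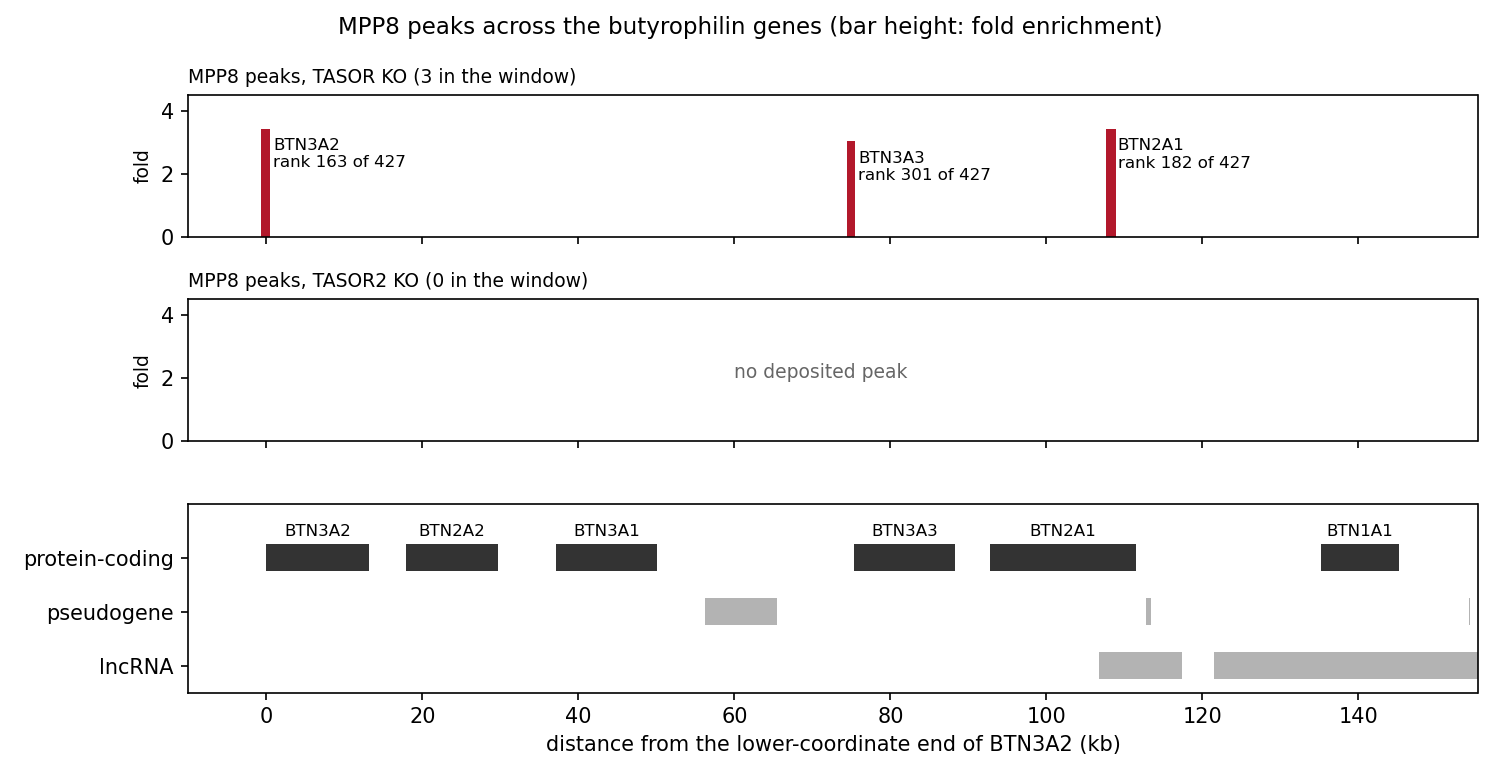
Fold enrichment of the deposited MPP8 peaks in TASOR KO cells (top) and TASOR2 KO cells (middle) above the annotated genes (bottom), by distance in kb from the lower-coordinate end of BTN3A2. The 3 TASOR KO peaks lie at the start of BTN3A2, the start of BTN3A3 and late in BTN2A1, and the TASOR2 KO panel is empty.

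BTN3A2 encodes a butyrophilin without the B30.2 domain that associates with BTN3A1. Its gene (gene ID 11118) runs from 26365169 to 26378320. The TASOR KO peak lay at 26364513 to 26365581, a width of 1069 bp, with a fold enrichment of 3.43 over the peak caller's background, a −log10 p of 4.22 and a −log10 q of 1.03. These values are the authors' own for the peak, and in the MACS2 format for broad peaks they are means over its positions. The peak reached from 685 bp before to 383 bp after the upstream annotated start of BTN3A2, at 26365198, and held all 300 bases of the printed promoter. The second annotated start of BTN3A2, at 26368178, lay 2597 bp beyond the peak.

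BTN3A3 encodes a paralog that keeps the B30.2 domain and is known to restrict avian influenza A viruses. Its gene (gene ID 10384) runs from 26440504 to 26453415. The TASOR KO peak at 26439541 to 26440612 was 1072 bp wide, with a fold of 3.03, a −log10 p of 3.44 and a −log10 q of 0.515. It reached from 963 bp before to 108 bp after the annotated start, and it too held the whole printed promoter. Most of each of these peaks therefore lay upstream of the gene.

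BTN2A1 encodes the butyrophilin that binds the γδ T cell receptor. Its gene (gene ID 11120) runs from 26457955 to 26476622, and its peak was placed differently. The TASOR KO peak at 26472786 to 26474050, 1265 bp wide with a fold of 3.42, a −log10 p of 4.13 and a −log10 q of 0.919, began 14831 bp after the annotated start and ended 2572 bp before the upper end of the gene. None of the bases of the BTN2A1 promoter lay in a peak. The same interval also lies in LOC285819, a long noncoding RNA gene (26471944 to 26482509) that overlaps the upper end of BTN2A1, so the peak cannot be given to either gene alone. It began 842 bp inside the lower-coordinate end of LOC285819. Exon positions were not used here, so whether these peaks lie over exons or introns is not stated.

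**Figure D2:**
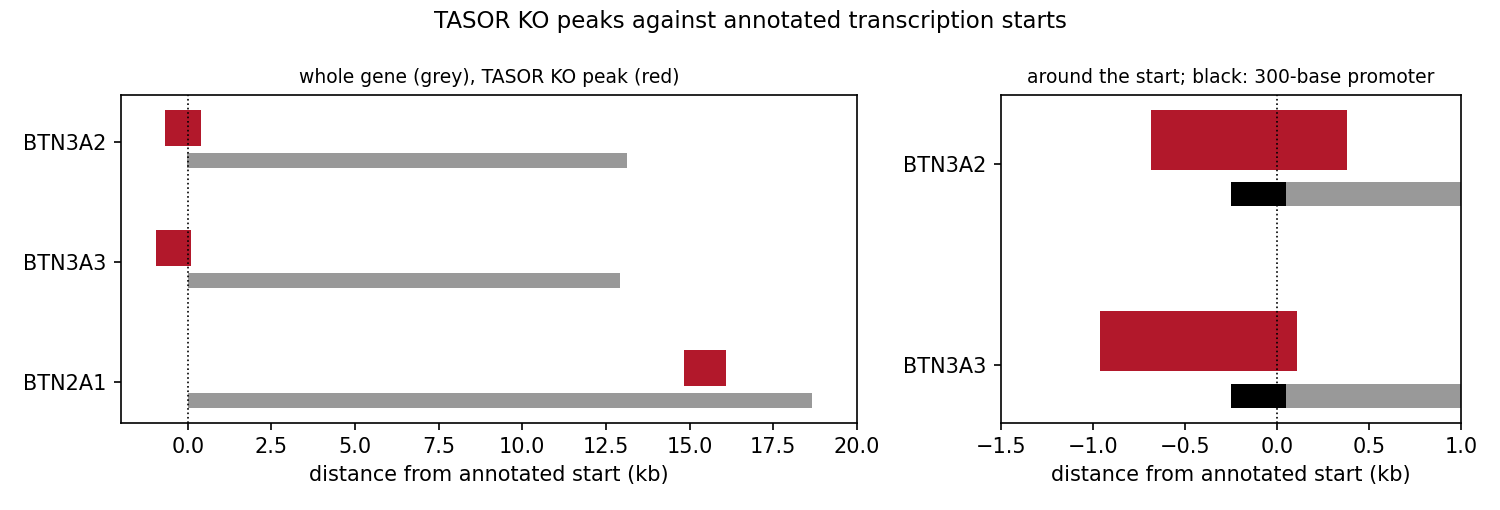
TASOR KO peaks (red) against the gene (grey) by distance in kb from the annotated start, for all of the gene (left) and near the start (right, with the 300-base promoter in black). The BTN3A2 and BTN3A3 peaks straddle the start and the BTN2A1 peak begins 14831 bp after it; the downstream start of BTN3A2 is not drawn.

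Starts were rarely met by peaks elsewhere. Among the 22199 promoter entries of protein-coding genes, 0.518% were met by a TASOR KO peak and 0.0045%, a single entry, by a TASOR2 KO peak. Of the butyrophilin genes with an entry, a TASOR KO peak met BTN3A2 and BTN3A3, and no TASOR2 KO peak met any. The lack of a TASOR2 KO peak at the butyrophilin starts is thus what nearly all promoter entries showed in that list.

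The genes without a TASOR KO peak had none within 10 kb of the body, and their nearest peaks were those of the cluster itself. BTN2A2 encodes a butyrophilin that restrains T cell activation, and its gene (gene ID 10385, 26383108 to 26394874) lay 17527 bp from the nearest TASOR KO peak, the one at BTN3A2. BTN3A1 (gene ID 11119, 26402275 to 26415208) lay 24333 bp from the BTN3A3 peak. BTN1A1, the founding member of the family, encodes a major protein of the milk fat globule membrane. Its gene (gene ID 696, 26500303 to 26510425) lay 26253 bp from the BTN2A1 peak. For TASOR2 KO the nearest peak to all 6 genes was the same one, inside the zinc finger gene ZNF391 at 27400918 to 27401953, between 890 kb (BTN1A1) and 1023 kb (BTN3A2) away.

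The 3 TASOR KO peaks were separated by 73959 bp and 32173 bp without a peak, and they stood alone in their neighbourhood. The next TASOR KO peaks lay 1225 kb below the cluster, at 25134664 to 25140000 in the pseudogene CMAHP, and 1678 kb above it, at 28187961 to 28190243 in the pseudogene ZKSCAN8P2. The next TASOR2 KO peak below the cluster, in HIVEP1, was 14241 kb away. In the peak names, the numbers rise with position on every chromosome, and those of the 3 cluster peaks, 9951, 9952 and 9953, follow each other without a gap. No number is missing between them, where BTN2A2 and BTN3A1 lie. The numbers run from 1612 to 13397 in TASOR KO, a span of 11786, of which 427 are in the list used here. In TASOR2 KO they run from 1 to 1512, of which 264 are. Calls numbered below 1612 in TASOR KO are outside that span, so the longer list may be larger than it. How these peaks were chosen from the longer lists is not stated, so the absence of a peak, a rank or a share refers to the peaks used here alone. Between the cluster peaks and their neighbours, 4 numbers below and 5 above are not in the deposited list, and their positions are not known, so whether one of them lay at BTN1A1 is not known. In TASOR2 KO, 5 numbers are missing between the peaks in HIVEP1 and ZNF391. Whether a call of the longer TASOR2 KO list lay in the butyrophilin genes is therefore not known.

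Within their list the cluster peaks were narrow and of middling to low strength. By −log10 q the BTN3A2 peak ranked 163, the BTN2A1 peak 182 and the BTN3A3 peak 301 of the 427 TASOR KO peaks, against 138 peaks with a q of 0.05 or less. Their q values, from the deposited mean −log10 q, were 0.0937 at BTN3A2, 0.120 at BTN2A1 and 0.306 at BTN3A3. By these averages none of the 3 peaks was at or below 0.05. Over all protein-coding genes, 0.494% had a body peak at that q in TASOR KO and 0.279% in TASOR2 KO. The BTN3A2 and BTN2A1 folds exceeded those of 55.7% and 54.3% of the TASOR KO peaks, and the BTN3A3 fold exceeded 17.3%. All 3 widths, from 1069 to 1265 bp, were below the median of 1929 bp of the list, with 21.3% of its peaks narrower than the BTN3A2 peak and 29.5% narrower than the BTN2A1 peak. The depth of the libraries is not given in the peak lists and is unknown.

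**Figure D3:**
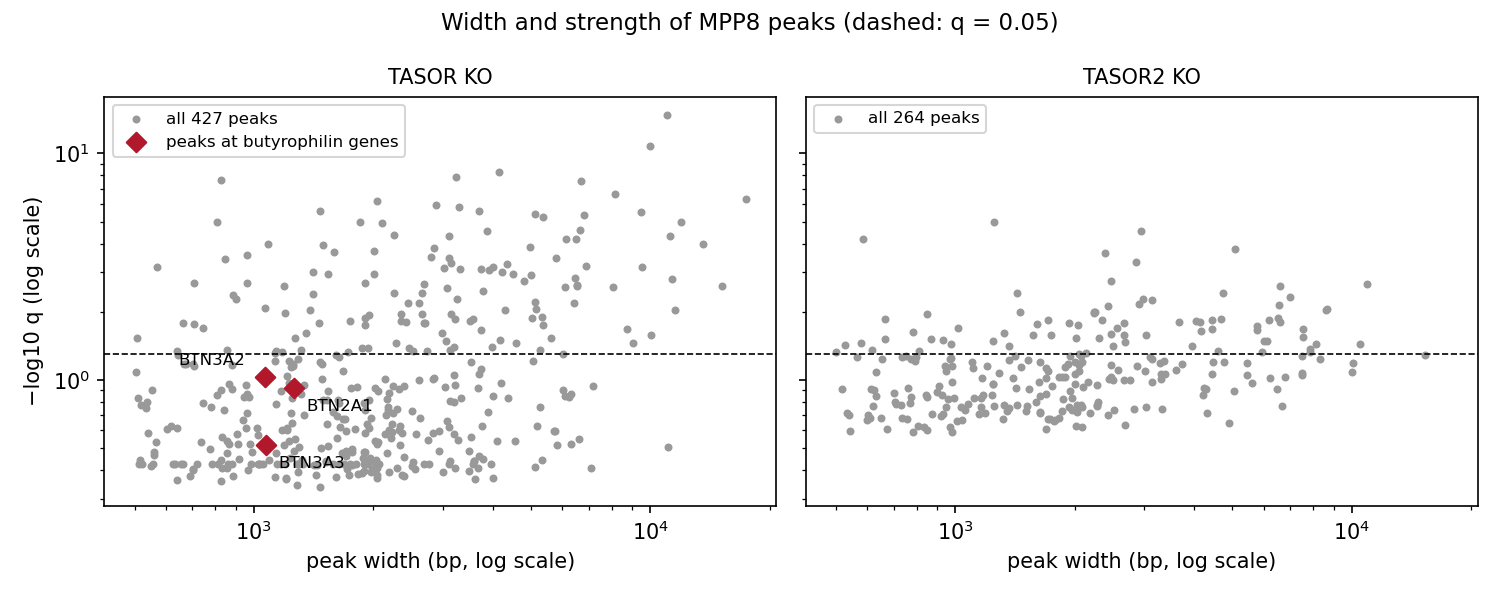
Width in bp and −log10 q of every deposited peak in TASOR KO (left) and TASOR2 KO (right) cells, both on log scales, with the peaks at butyrophilin genes as red diamonds and q = 0.05 dashed. All 3 diamonds lie below the dashed line and left of the TASOR KO median width of 1929 bp.

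As a share of peaks, the cluster held 3 of 427 in TASOR KO (0.703%, exact Clopper-Pearson 95% interval 0.145 to 2.04). In TASOR2 KO it held 0 of 264 (same method, upper limit 1.39%). An approximate 1-sided limit for a count of 0 is 3 counts, or 1.14% of 264. The intervals and limits cover counting error only and treat peaks as independent. The cluster was chosen from these peaks, so the shares describe the lists and were not compared by a test. The peaks covered 2.06% of the window in TASOR KO, against 0.0411% of the annotated span of chromosome 6. Of windows of the same length centred on each protein-coding gene, 0.289% held at least 3 TASOR KO peaks (0.667% on chromosome 6) and 2.36% held at least 1 TASOR2 KO peak. The 58 windows with at least 3 TASOR KO peaks joined into 12 loci, of which 7 held ZNF or ZSCAN genes. The other 5 were the butyrophilin genes, the IFIT genes, SP140L, the APOL genes, and the TAP and PSMB genes of the MHC.

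Beside the IFIT, SP100 and APOL gene clusters, the butyrophilin peaks were the weakest by their best rank. The best butyrophilin rank was 163 (BTN3A2), against 70 among 5 peaks of the IFIT genes, 33 among 4 of the SP100 family and 39 among 3 of the APOL genes. A q at or below 0.05 was found for 0 of 3 butyrophilin peaks, against 2 of 5 IFIT, 3 of 4 SP100 and 2 of 3 APOL peaks. Over all TASOR KO peaks, 32.3% had such a q. The widest butyrophilin peak measured 1265 bp, against 3732 bp for IFIT, 10049 bp for SP100 and 6415 bp for APOL. The narrowest SP100 peak, of 866 bp and rank 294, was narrower than any butyrophilin peak. Narrow peaks also stood at the TAP and PSMB genes of the MHC, with widths of 1214, 1468 and 1484 bp. Of those, the TAP2 peak alone had a q of 0.05 or less, at rank 13. All of these clusters were chosen from their peaks in the same list, so the values are set side by side without a test. None of the 4 clusters held a TASOR2 KO peak. Few places did: 0.858% of protein-coding genes had one in the body. Of windows as long as the butyrophilin one, 2.36% held at least 1. The compared clusters, with margins, ran from 139 kb (IFIT) to 639 kb (APOL), so that share is not matched to each.

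**Figure D4:**
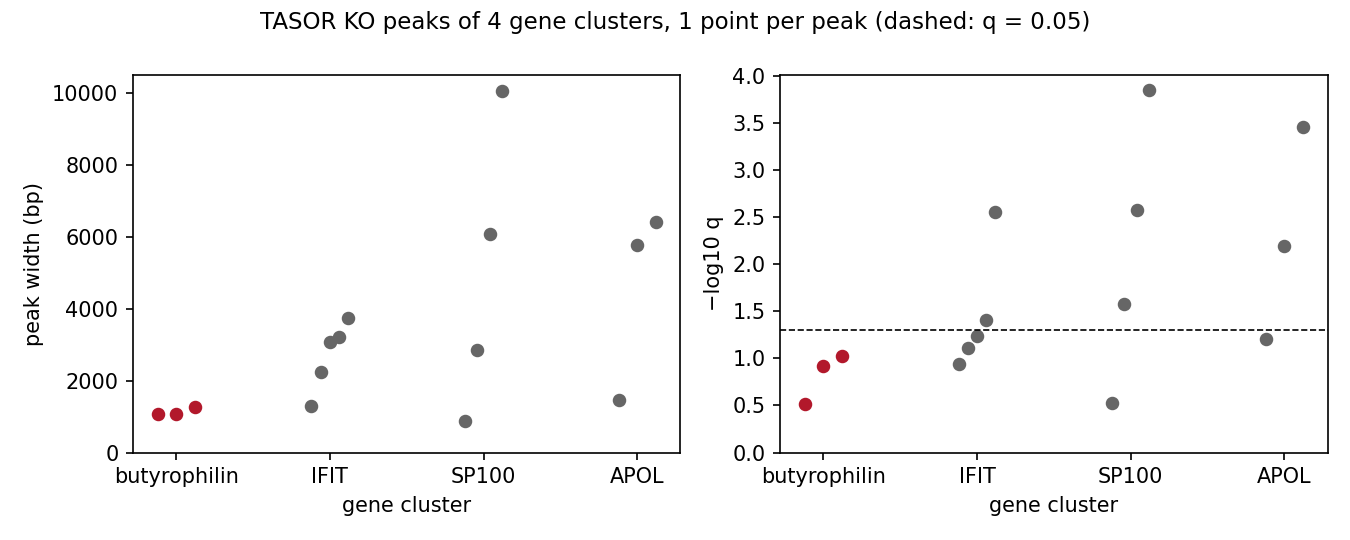
Width in bp (left) and −log10 q (right) of each TASOR KO peak in the butyrophilin (red), IFIT, SP100 and APOL gene clusters (grey), 1 point per peak, with q = 0.05 dashed. The butyrophilin points span 1069 to 1265 bp and all lie below the dashed line, while each other cluster has at least 2 points above it.

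The promoters of BTN3A2 and BTN3A3 are close copies of each other. Aligned with free end gaps, 253 of 292 paired bases were identical (86.6%, or 84.3% of all 300 bases). The longest run without a difference was 58 bases, from 62 to 5 bases before the BTN3A2 start. Against the other printed promoters the longest shared run was 11 bases or fewer. BTN3A1 and BTN2A2, which had no peak, also had no promoter entry and could not be compared. Short reads from such runs could be placed at either gene, and the sources used here do not give how reads with several placements were treated, so the separate placement of the peaks at BTN3A2 and BTN3A3 is uncertain. Read length and mappability were not examined, and the promoters rather than the whole peaks were compared. All printed promoters held fewer CpG than the median entry, with 5 in BTN3A2 and 3 in BTN3A3, against 7 in BTN2A1, 2 in BTN1A1 and a median of 14 over all 35116 promoter entries. The GC content was 37% for BTN3A2 and 34.7% for BTN3A3, against 45.7% in BTN2A1, 46.7% in BTN1A1 and a median of 58.7%.

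A CCAAT box stood in the BTN3A2 promoter, from 30 to 26 bases before the start, and in the BTN3A3 promoter, from 34 to 30 bases before it. BTN2A1, whose start had no peak, held 2 such boxes, and BTN1A1 held none. CCAAT occurred on either strand in 34.6% of all promoter entries. The run shared by BTN3A2, BTN3A3 and BTN2A1 was CCCAGCAACTG, which began 62 bases before the BTN3A2 start, 66 before the BTN3A3 start and 116 before the BTN2A1 start. It occurred in 21 of the 35116 entries (0.0598%). The run was found by comparing these promoters, so its presence in them is no finding. The IRF spacing of AAAA and GAAA stood 99 to 90 bases before the BTN3A2 start and 103 to 94 bases before the BTN3A3 start. It also stood in BTN2A1, in BTN1A1, at a further place in BTN3A2 and in 3.86% of all entries. That motif was added after these promoters were read, so its presence in them is no finding either. Of the other motifs searched on both strands, a pair of GAAA set 2 bases apart, the core of an interferon-stimulated response element, matched BTN3A3 (3.57% of entries), and TATAAA matched BTN3A2 (11.5%). TTCNNNGAA (7.66% of entries), TGACG (24.6%), GGGCGG (45.0%) and CACGTG (7.26%) matched none of the 4 printed promoters. A match is a match of letters, and binding of these factors was not measured. The response element core and the IRF spacing can overlap.

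Listed genes related to the butyrophilins by sequence or function, and the histone genes of the same chromosome, were mostly free of peaks. None of 16 relatives listed outside the 6 members, among them the BTNL genes, MOG and ERMAP and the B7 genes CD274 and CD80, had a peak in or within 1 kb of the gene in either knockout. That list included the pseudogene BTN2A3P, which lies within the cluster. None of 14 genes of the phosphoantigen and mevalonate pathway had one, nor any of the 55 histone genes of chromosome 6. Of 29 genes of the TRIM group with a B30.2 domain, 0 had a TASOR KO peak and 1 a TASOR2 KO peak, in TRIM58. By the same measure, 1.12% of all protein-coding genes had a TASOR KO peak and 0.893% a TASOR2 KO peak, so lists of these sizes would hold few such genes.

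Among 22 MHC class I genes and regulators, 5 had a TASOR KO peak in the body (TAP1, TAP2, PSMB8, PSMB9 and B2M), and 0 had a TASOR2 KO peak, against 1.08% and 0.858% of all protein-coding genes. This list was written with the peaks at TAP2 and B2M already known, and its count is a description. The strongest was the peak at TAP2, which encodes a subunit of the antigen peptide transporter, with a width of 1468 bp, a fold of 4.67 and rank 13, and it alone had a q at or below 0.05. The peak shared by TAP1 and PSMB9, the genes of the other transporter subunit and of an immunoproteasome subunit, had a width of 1484 bp, a fold of 3.19 and rank 150. The peak over PSMB8, which encodes another immunoproteasome subunit, had a width of 1214 bp, a fold of 2.79 and rank 262. The peak at B2M, the gene of the MHC class I light chain, had a width of 1292 bp, a fold of 2.91 and rank 404. The 3 butyrophilin peaks, of ranks 163 to 301, fell within the range of these ranks. The classical and nonclassical HLA class I genes, NLRC5, CIITA, and the RFX and NFY genes whose products bind the shared promoter module had no peak in either list.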

How the data were processed

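MPP8 ChIP-seq peak lists of TASOR KO and TASOR2 KO K-562 cells were analysed, 1 library each, grouped by title. The submitters' processing notes name the tools deepTools, MACS2 and Bowtie2 (2.3.5.1) and, as builds, hg38 and mm9. Which control library and thresholds served for peak calling, and how the mouse spike-in was used, is not given in the sources. The deposited lists have no header, and their columns follow the MACS2 order for broad peaks. The fold enrichment (a ratio), −log10 p, −log10 q and score (the whole part of 10 times −log10 q) are the authors' own deposited values, called per sample. In the broad format they are means over the positions of a peak. A q given here is thus an average for the peak and not a test of it. TASOR KO peak names include the tag 0.5 and TASOR2 KO names the tag 0.3, whose meaning is not given, and the largest q was 0.460 for TASOR KO and 0.258 for TASOR2 KO. The lists may thus differ in threshold as well as in genotype.

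Overlap meant 1 bp or more, with coordinates 1-based. Gene positions, promoter sequences and strands came from RefSeq tables of GRCh38.p14. Promoters were aligned globally (match 1, mismatch −1, gap opening −2, extension −0.5, free end gaps). The members and gene lists were chosen with earlier results of these data known. The motif of AAAA and GAAA 2 bases apart was added after the promoters were read. The genes named are the 6 members, genes in the window, the nearest peaks outside it, and listed genes with a peak. Relatives without a peak were named as examples. Overlap calls were tested on simulated data. Alternatives were stricter q or rank, a 50% overlap, other margins and distances, peak centres, windows of chromosome 6 and 1-strand motif searches. Computation used Python 3.11.15, numpy 2.4.6, pandas 2.3.3, scipy 1.17.1, Biopython 1.88 and matplotlib 3.10.9.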

Additional observations from a re-analysis of the deposited data

How the results depend on the processing

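At a q of 0.05 or less, 0 TASOR KO peaks and 0 of the 6 members with a peak were left in the cluster, against 3 of each in the whole list, because the 3 peaks had a q between 0.0937 and 0.306. With at least 50% of a peak inside the gene body, 1 member, BTN2A1, still counted in TASOR KO, since the peaks at BTN3A2 and BTN3A3 lie mostly upstream of the gene. Among windows centred on genes of chromosome 6, 0.667% held at least 3 TASOR KO peaks, against 0.289% over all genes. In the higher-scoring part of the list, at a common q threshold of 0.258, and without the lowest-ranking cluster peak (an alternative added after the ranks were seen), 2 peaks or members were left. Margins of 0, 50 and 100 kb and distances of 1, 5 and 10 kb gave the same 3. The TASOR2 KO counts of 0 could not fall, and no wider margin raised them. On the plus strand alone the IRF spacing was found in 1 member and the response element core in 0. No paired analysis was possible because there was only 1 library of each genotype, and none could be left out. The unknown depth limits what the absence of a peak shows.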

Other observations

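The run CCCAGCAACTG was also present in 18 promoter entries outside the butyrophilin genes. A TASOR KO peak met 1 of these 18, that of PSMB8, where 0.518% of all promoter entries of protein-coding genes were met. The 18 were drawn from all 35116 entries and the share from the 22199 of protein-coding genes, so they are not matched. Neither the run nor this count was chosen independently of the peaks.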
